A study of Mus musculus with 208 samples.

Results

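The effect of perinatal morphine on the adult hippocampus was measured without any immune stimulus, by comparing mice exposed to morphine early in life and given saline in adulthood (MOR-SAL) with mice given saline at both ages (SAL-SAL). Libraries of both groups were taken from the hippocampal count table and a library was dropped when its total count was under 0.5 of the median total of that table. This kept 24 libraries, 11 MOR-SAL and 13 SAL-SAL, among the 53 hippocampal libraries that passed the same depth rule. The genes described are the 13990 whose mean level over these 24 libraries was at least 1 CPM (a gene's count scaled to the total count of its library), of 46403 genes in the table.

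All animals were C57BL/6NTac mice labelled wild type. MOR-SAL dams carried osmotic minipumps delivering morphine at 10 mg/kg/day before and through gestation, and their pups, moved to drug-naive surrogate dams after birth, received 10 mg/kg morphine under the skin 2 times a day from postnatal day 1 to the morning of postnatal day 14, followed by spontaneous withdrawal. SAL-SAL animals went through the same steps with saline in place of morphine. Every animal of both groups received a saline injection as an adult and tissue was taken 2 h later, so both groups had been injected. The sexes were pooled, with 6 females and 5 males in MOR-SAL and 6 females and 7 males in SAL-SAL. Exposure was assigned to the dam, the 11 MOR-SAL animals came from 8 litters and the 13 SAL-SAL animals from 7 litters, and no litter held both exposures.

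Each library was made from about 5000 nuclei of 1 animal that were sorted for NeuN, a protein of neuronal nuclei, so the values describe RNA in the nuclei of neurons and not whole-tissue RNA. The hippocampus encodes new memories and takes part in the control of the stress axis. Its excitatory chain runs from granule cells of the dentate gyrus to pyramidal cells of CA3 and CA1, and each step is held in check by GABA interneurons. Morphine acts mainly on the μ-opioid receptor, a Gi-coupled receptor encoded by Oprm1 that in the hippocampus sits largely on interneurons, where its activation lowers GABA release and so frees the pyramidal cells. In a pool of nuclei, fewer cells of a type and less RNA per cell cannot be told apart.

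Total counts ran from 6529594 to 16365430 in MOR-SAL, with a median of 8527199, and from 6036905 to 22488625 in SAL-SAL, with a median of 9751759. One MOR-SAL library was dropped, 13-1, with a total count of 227025. Rbfox3, which encodes NeuN, averaged 1301 CPM in MOR-SAL and 1429 CPM in SAL-SAL. These levels do not measure the purity of the sort, because no unsorted sample was compared. No 2 libraries were so alike that they agreed within counting noise, and each was counted as 1 replicate, although this comparison does not show that they are independent. Across genes, the variance between 2 libraries was 91.5 times that of counting noise at the median of all pairs, but 8.87 times for MOR-SAL 15-2 and 16-1 and 9.35 times for MOR-SAL 6-1 and 8-0, which carry different litter numbers. MOR-SAL 7-2 stood apart from the other libraries. Its median correlation with the other libraries (log2 CPM over genes) was 0.819, the lowest of the 24, and its label says female while its Y-linked genes summed to 111 CPM. MOR-SAL 17-2, labelled male, had 0.137 CPM of the same genes. The next lowest correlations were 0.859 in SAL-SAL 1-1, 0.874 in SAL-SAL 3-2 and 0.891 in SAL-SAL 5-3.

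By edgeR's quasi-likelihood test no gene met the study's threshold for a differentially expressed gene (DEG), a false discovery rate (FDR) under 0.05, in the hippocampus at baseline, whereas DESeq2, the tool of the study, called 17 genes, 4 of them of at least 1 CPM. The edgeR test with sex as a covariate and Benjamini-Hochberg adjustment over 22069 genes gave 0 DEGs (0% of all genes tested and 0% of the 13990 genes of at least 1 CPM). The smallest adjusted p was 0.0984, shared by 56 genes. At an unadjusted p under 0.05 there were 2268 of the 22069 genes. Among the 13990 genes of at least 1 CPM the same rule took 583 genes (4.17%), of which 375 (2.68%) were higher in MOR-SAL and 208 (1.49%) were lower. In no gene of at least 1 CPM (0%) did all values of one group lie above all values of the other.

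Genes with low p-values were concentrated among the genes below 1 CPM. Of the 8079 tested genes below 1 CPM, 1685 (20.9%) had an unadjusted p under 0.05. That share was 31.2% for genes below 0.1 CPM and 12.6% between 0.1 and 1 CPM. It was 3.70% between 1 and 10 CPM, 4.95% between 10 and 100 CPM, 2.33% between 100 and 1000 CPM and 3.13% above 1000 CPM. No range above 1 CPM reached 5%, and both ranges below it exceeded 10%.

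The size of change that these libraries could have missed is given by the confidence intervals. The median log2 fold change over the 13990 genes was -0.01, with quartiles at -0.16 and 0.17. The 95% interval of a gene's log2 fold change was 0.99 wide at the median. For 9473 genes (67.7%) the whole interval lay between -1 and 1, so a change of 2-fold or more in either direction was outside the interval. A fitted change of at least 2-fold was seen in 453 genes.

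**Figure D1:**
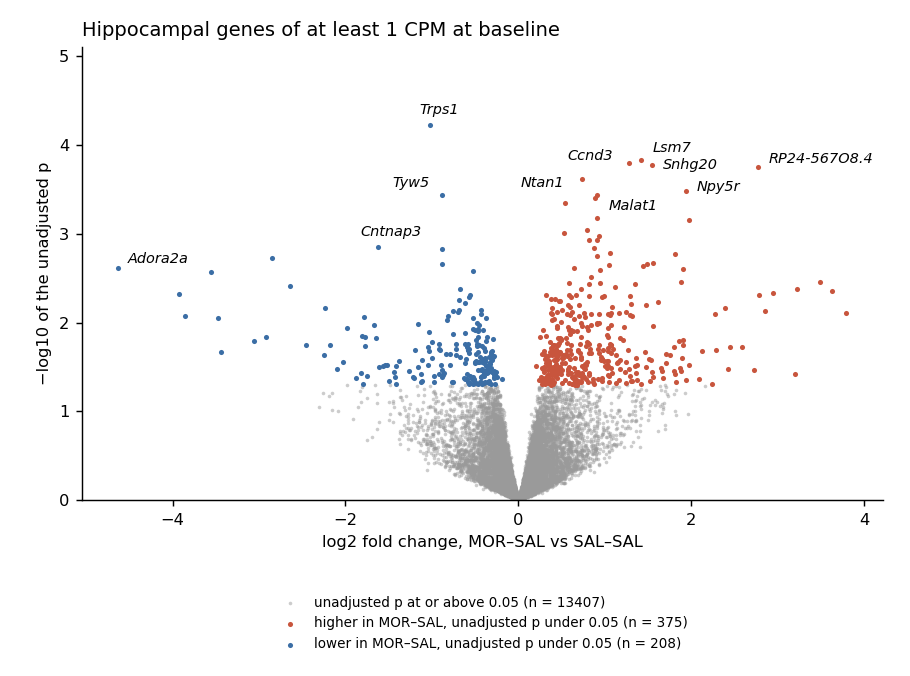
Log2 fold change of MOR-SAL against SAL-SAL (x axis) and -log10 of the unadjusted p from edgeR's quasi-likelihood test (y axis) for each of the 13990 hippocampal genes of at least 1 CPM, 1 point per gene. The 375 orange and 208 blue genes had an unadjusted p under 0.05, and 0 had an adjusted p under 0.05. Trps1, at -1.02, is the highest point.

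The higher genes drew heavily on 1 library. MOR-SAL 7-2 held the highest value of 264 of the 375 higher genes (70.4%), against 1998 of all 13990 genes (14.3%). Without it, 150 genes were higher and 164 lower at an unadjusted p under 0.05, so the excess of higher genes was no longer there. Of the 375 higher genes, 106 kept an unadjusted p under 0.05 in the same direction without this library, and of the 208 lower genes, 131 did. The lower genes had their highest value most often in SAL-SAL 1-1 (27.4% of the 208 genes, against 22.8% of all genes) and SAL-SAL 5-3 (24.5%, against 7.31%). Genes picked by direction tend to have their highest value in the group where they are higher. The shares over all genes are therefore not the shares to be seen without an effect. Without the 4 least correlated libraries, MOR-SAL 7-2 among them, 185 genes were higher and 151 lower at an unadjusted p under 0.05. Of the 375 higher and 208 lower genes, 83 and 83 kept an unadjusted p under 0.05 in that fit. The smallest adjusted p among genes of at least 1 CPM was then 0.247.

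**Figure D2:**
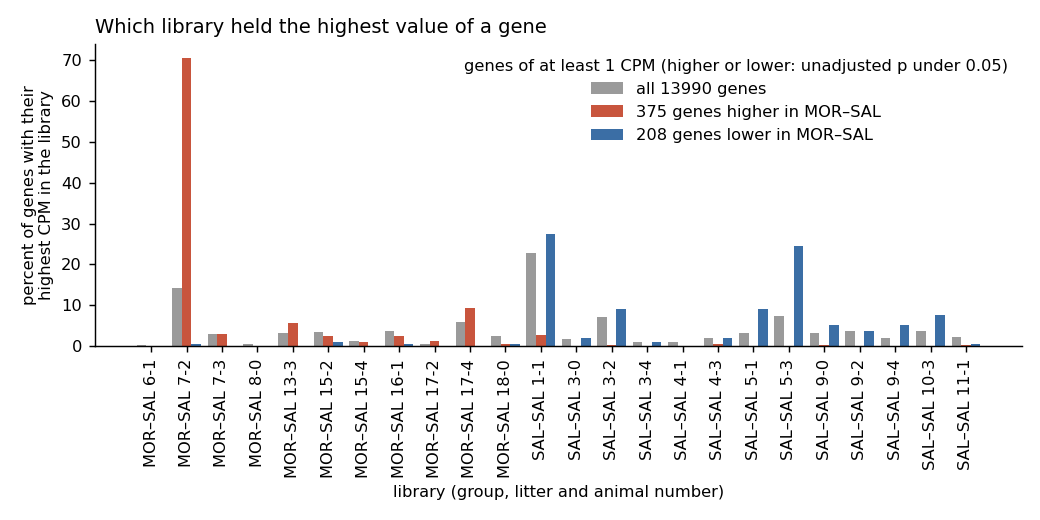
Percent of genes (y axis) whose highest CPM among the 24 libraries lay in each library (x axis, group with litter and animal number), for all genes of at least 1 CPM (grey), the 375 higher genes (orange) and the 208 lower genes (blue). The orange bar of MOR-SAL 7-2 reaches 70.4% and its grey bar 14.3%.

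The gene with the smallest p was Trps1, which encodes a GATA-type zinc finger repressor of transcription (mm10 chr15:50654752-50890463, minus strand, protein coding). Its level ran from 43.3 CPM through a median of 100.1 to 191 CPM in MOR-SAL and from 56.5 through 202 to 447 CPM in SAL-SAL. The groups overlapped, but none of the 11 MOR-SAL libraries reached the SAL-SAL median and 7 of the 13 SAL-SAL libraries exceeded every MOR-SAL library. The log2 fold change was -1.02 ± 0.24 (SE), with an unadjusted p of 5.95e-05 and an adjusted p of 0.0984 by edgeR's quasi-likelihood test. It was -0.95 without MOR-SAL 7-2 (p = 0.000153) and -1.06 without the 4 least correlated libraries (p = 1.38e-05). Over all 40 alternative settings it stayed between -1.17 and -0.80. Females gave -1.05 ± 0.34 and males -0.98 ± 0.35.

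Tyw5 and Arl6ip6 had the same shape at lower levels. Tyw5, a hydroxylase of the tRNA base wybutosine (chr1:57388237-57407101, with exon overlap on the opposite strand from Maip1), ran from 1.99 through a median of 7.95 to 13.2 CPM in MOR-SAL and from 5.25 through 15.6 to 26.7 CPM in SAL-SAL. No MOR-SAL library was above the SAL-SAL median, and the log2 fold change was -0.88 ± 0.23 (p = 0.000361, adjusted p = 0.105). Arl6ip6, which encodes a membrane protein that binds an ADP-ribosylation-like GTPase (chr2:53191726-53219220), ran from 2.24 through 4.17 to 8.34 CPM in MOR-SAL and from 6.25 through 8.35 to 12.9 CPM in SAL-SAL. For Arl6ip6, 6 of the 11 MOR-SAL libraries lay below every SAL-SAL library, and the log2 fold change was -0.88 ± 0.27 (p = 0.00149, adjusted p = 0.138). Its highest value was in SAL-SAL 5-3, and it gave -0.80 (p = 0.00346) without that library.

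Among the other lower genes, Cntnap3, a cell adhesion molecule of the neurexin family (chr13:64736182-64903955), ran from 0.613 through a median of 4.67 to 13.5 CPM in MOR-SAL and from 0 through 14.4 to 45.4 CPM in SAL-SAL, so that the groups overlapped. The log2 fold change was -1.62 ± 0.48 (p = 0.0014), and -1.37 (p = 0.00512) without SAL-SAL 5-3, its highest library. Cwc22, a splicing factor whose exons overlap Gm13727 on the same strand, had a log2 fold change of -0.53 ± 0.17 (p = 0.00259), -0.13 ± 0.22 in females and -0.96 ± 0.23 in males. Gm14508 and Gm28904, gene models with mean levels of 1.21 and 1.75 CPM, had log2 fold changes of -2.85 and -2.64 with SEs of 0.88 each. Gm14508 was also highest in SAL-SAL 5-3, gave -2.43 (p = 0.00591) without it, and ran from -4.61 to -1.03 over the 40 alternative settings.

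Adora2a and Cd4, which were also among the 10 lower genes with the smallest p, had a far higher value in SAL-SAL 5-3 than in any other library. Adora2a, an adenosine receptor typical of striatopallidal neurons, was at 0 to 1.06 CPM in MOR-SAL and at 0 to 11.1 CPM in 12 SAL-SAL libraries, but at 76.1 CPM in SAL-SAL 5-3. Its log2 fold change of -4.63 ± 1.46 (p = 0.00245) became -2.25 (p = 0.0821) without that library. Cd4, best known as the T cell coreceptor, reached 15.6 CPM in the same library and at most 1.85 CPM in the other SAL-SAL libraries, and its log2 fold change of -3.56 ± 1.14 became -2.14 (p = 0.0428). A list of 13 genes of striatal projection neurons, put together after these values were seen, summed to 6345 CPM in SAL-SAL 5-3 and to 439 to 1375 CPM (median 842) in the other 23 libraries. For 12 of the 13 genes this library was the highest, with Drd2 at 301 CPM, Adcy5 at 1298 CPM and Pde10a at 3208 CPM.

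Higher genes fell into those that kept a small p without MOR-SAL 7-2 and those that did not. Ccnd3, a D-type cyclin whose exons overlap Bysl on the opposite strand (chr17:47505051-47599691), ran from 6.08 through a median of 19.4 to 94.3 CPM in MOR-SAL and from 4.04 through 11.1 to 13.6 CPM in SAL-SAL. For Ccnd3, 9 of 11 MOR-SAL libraries were above every SAL-SAL library. The log2 fold change was 1.28 ± 0.32 (p = 0.000161, adjusted p = 0.0984) and 0.87 without MOR-SAL 7-2 (p = 0.00514). Males and females gave 1.37 ± 0.43 and 1.22 ± 0.43.

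Ntan1 encodes an amidase that marks proteins for turnover by the N-degron pathway (chr16:13818845-13835451). Its exons overlap Gm27734 on the same strand and Pdxdc1 on the opposite strand. Ntan1 ran from 15.5 through 30.6 to 75.7 CPM in MOR-SAL and from 13.3 through 19.9 to 26.3 CPM in SAL-SAL. In 6 MOR-SAL libraries it was above all SAL-SAL values, and the log2 fold change was 0.73 ± 0.19 (p = 0.000244) and 0.55 without MOR-SAL 7-2 (p = 0.00254). Ivd, isovaleryl-CoA dehydrogenase of leucine breakdown (chr2:118861954-118882909), ran from 29.3 through 58.7 to 103 CPM in MOR-SAL and from 23.5 through 45.7 to 59.9 CPM in SAL-SAL. It had a log2 fold change of 0.54 ± 0.15 (p = 0.000454), and 10 of 11 MOR-SAL libraries were above the SAL-SAL median. Rsph9, a radial spoke protein of motile cilia, and Cygb, the globin cytoglobin, had log2 fold changes of 0.89 ± 0.24 and 0.91 ± 0.25, which were 0.59 (p = 0.00854) and 0.60 (p = 0.0125) without MOR-SAL 7-2. The unannotated transcript RP24-567O8.4 had a median of 1.52 CPM in MOR-SAL and 0.327 CPM in SAL-SAL, and 9 MOR-SAL libraries lay above the SAL-SAL maximum of 0.994 CPM. It was at 14.5 CPM in MOR-SAL 7-2 and at most 2.93 CPM in the other MOR-SAL libraries, and its log2 fold change of 2.77 ± 0.69 became 2.11 (p = 0.00299) without that library.

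Lsm7, Snhg20, Npy5r and Malat1 took most of their difference from MOR-SAL 7-2. Lsm7, a subunit of the Lsm rings that act in mRNA decay and U6 snRNA binding, was at 626 CPM in that library and at 19.9 to 73.8 CPM in the other MOR-SAL libraries, beside 19.7 to 88.9 CPM in SAL-SAL. Its log2 fold change of 1.42 ± 0.35 (p = 0.000146) became 0.38 (p = 0.0908) without the library. Snhg20, a small nucleolar RNA host gene, was at 424 CPM there and at most 35.5 CPM in the other MOR-SAL libraries, and its log2 fold change of 1.55 ± 0.39 became 0.32 (p = 0.179).

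Npy5r, a receptor for the feeding peptide neuropeptide Y, was at 194 CPM in MOR-SAL 7-2 and at most 12.3 CPM elsewhere in its group, with a log2 fold change of 1.94 ± 0.51 that became 0.52 (p = 0.185). Malat1, an abundant long RNA that stays in the nucleus, reached 28482 CPM in MOR-SAL 7-2 and 2565 to 6240.2 CPM in the other MOR-SAL libraries, beside 1820.03 to 5638 CPM in SAL-SAL. Its log2 fold change of 0.92 ± 0.24 (p = 0.000368) became 0.40 (p = 0.0319). For these 4 genes the remaining MOR-SAL libraries lay mostly inside the SAL-SAL range.

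**Figure D3:**
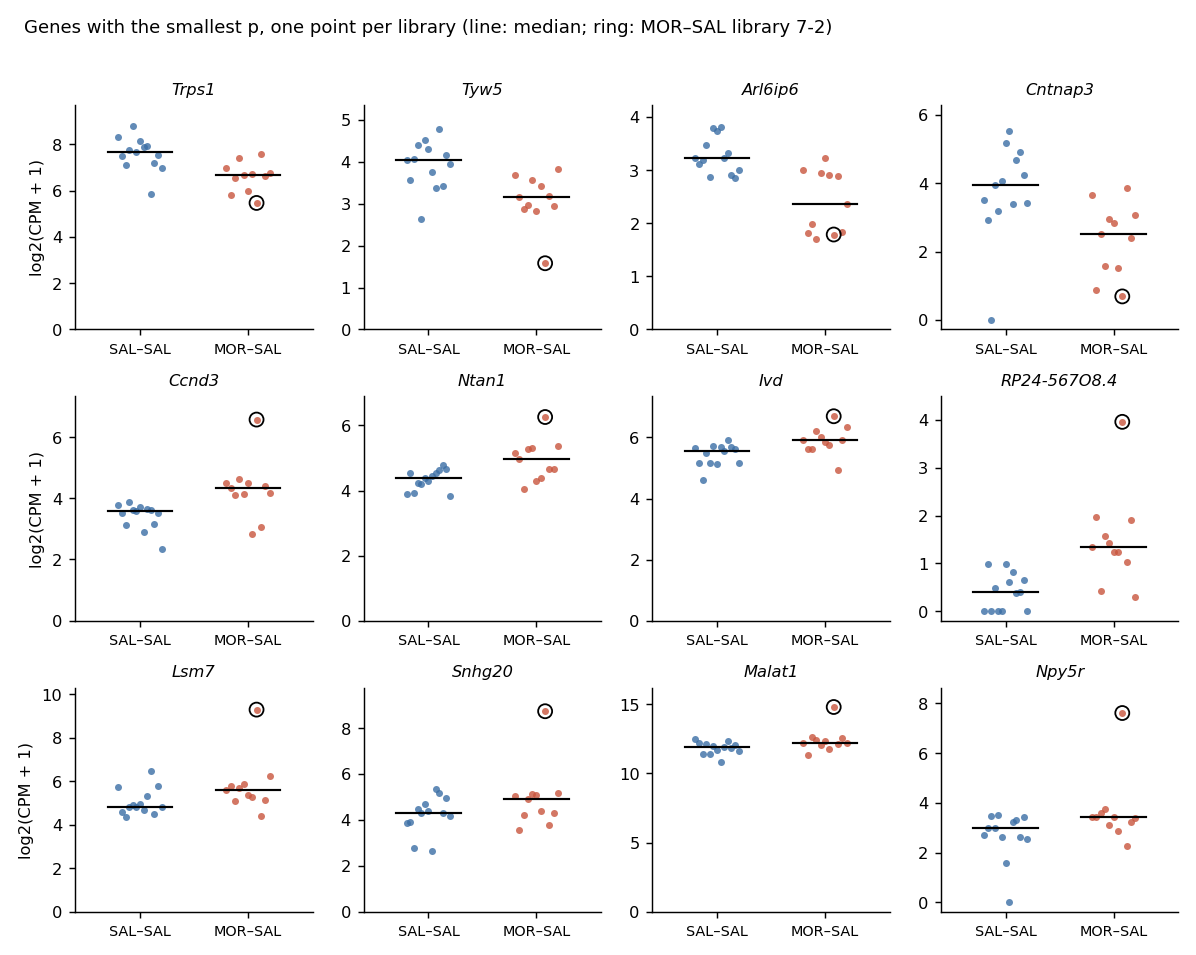
Level of 12 genes among those with the smallest p, as log2(CPM + 1) (y axes), in the 13 SAL-SAL (blue) and 11 MOR-SAL (orange) libraries, 1 point per library with a line at the group median. The ringed point is MOR-SAL 7-2, which lies far above its group for Lsm7, Snhg20, Malat1 and Npy5r but inside or below it for Trps1, Tyw5, Arl6ip6 and Cntnap3.

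DESeq2, run on the same libraries with the same covariates, called 17 genes (0.077% of genes tested), 10 higher and 7 lower, and left 257 adjusted p-values undefined. Only 4 of the 17 were genes of at least 1 CPM, namely Trps1 (adjusted p = 0.0247), Lsm7 (0.0279), Snhg20 (0.0278) and RP24-567O8.4 (0.00626). The other genes had mean levels below 1 CPM, such as Ankk1 at 0.768 CPM and Dnajb13 at 0.185 CPM. Of the 4 genes above 1 CPM, Lsm7 and Snhg20 are described above as resting on MOR-SAL 7-2, and Trps1 does not.

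None of the opioid receptors and opioid peptide precursors passed the test in either direction. Of the 8 genes, all were tested and 7 reached 1 CPM, 0 had an unadjusted p under 0.05, and their median log2 fold change was -0.23 beside -0.01 for all 13990 genes. For 3 of the 7 genes (42.9%) the 95% interval lay between -1 and 1, against 67.7% of all genes, so this family was measured less precisely than the typical gene.

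Oprm1, the receptor through which morphine acts, ran from 0.14 through a median of 19.8 to 35.2 CPM in MOR-SAL and from 4.40 through 14.7 to 65.1 CPM in SAL-SAL. The groups overlapped, with 3 SAL-SAL libraries above every MOR-SAL library and 1 MOR-SAL library below every SAL-SAL library, and the log2 fold change was -0.23, with a 95% interval from -0.98 to 0.51. The direction of Oprm1 turned without SAL-SAL 5-3, its highest library, to 0.14 (p = 0.697), and it was 0.44 (p = 0.227) without the 4 least correlated libraries. Oprl1, the nociceptin receptor, ran from 9.65 through 16.0 to 30.1 CPM in MOR-SAL and from 13.2 through 18.8 to 31.1 CPM in SAL-SAL, with a log2 fold change of -0.21 and an interval from -0.62 to 0.20. Oprd1, the δ-opioid receptor, had medians of 10.4 and 10.8 CPM and a log2 fold change of -0.01 (interval -0.79 to 0.76). Oprk1, the κ-opioid receptor, had medians of 2.80 and 2.75 CPM and a log2 fold change of -0.60 whose interval ran from -2.04 to 0.85. Oprk1 was at 44.4 CPM in SAL-SAL 1-1 and 16.8 CPM in SAL-SAL 5-3, its fold change was 0.09 without SAL-SAL 1-1 and 0.99 (p = 0.152) without the 4 least correlated libraries, and over the 40 settings it ran from -1.34 to 1.18 and turned in 7.

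The peptide precursors varied more between libraries than between groups. Penk, the enkephalin precursor, ran from 10.3 through 26.5 to 127 CPM in MOR-SAL and from 9.25 through 28.9 to 475 CPM in SAL-SAL. The value of 475 CPM was that of SAL-SAL 5-3, and the log2 fold change of -1.08 (interval -2.50 to 0.35) was 0.00 without this library and 0.60 without the 4 least correlated libraries. Pdyn, the dynorphin precursor of dentate granule cells, had medians of 23.9 CPM in MOR-SAL and 16.2 CPM in SAL-SAL and a log2 fold change of 0.40 (interval -0.41 to 1.21). Without the 4 least correlated libraries Pdyn gave 0.86 (p = 0.046). Pnoc, the nociceptin precursor, gave -0.41 (interval -1.20 to 0.37), and Pomc averaged 0.949 CPM, below the 1 CPM floor.

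**Figure D4:**
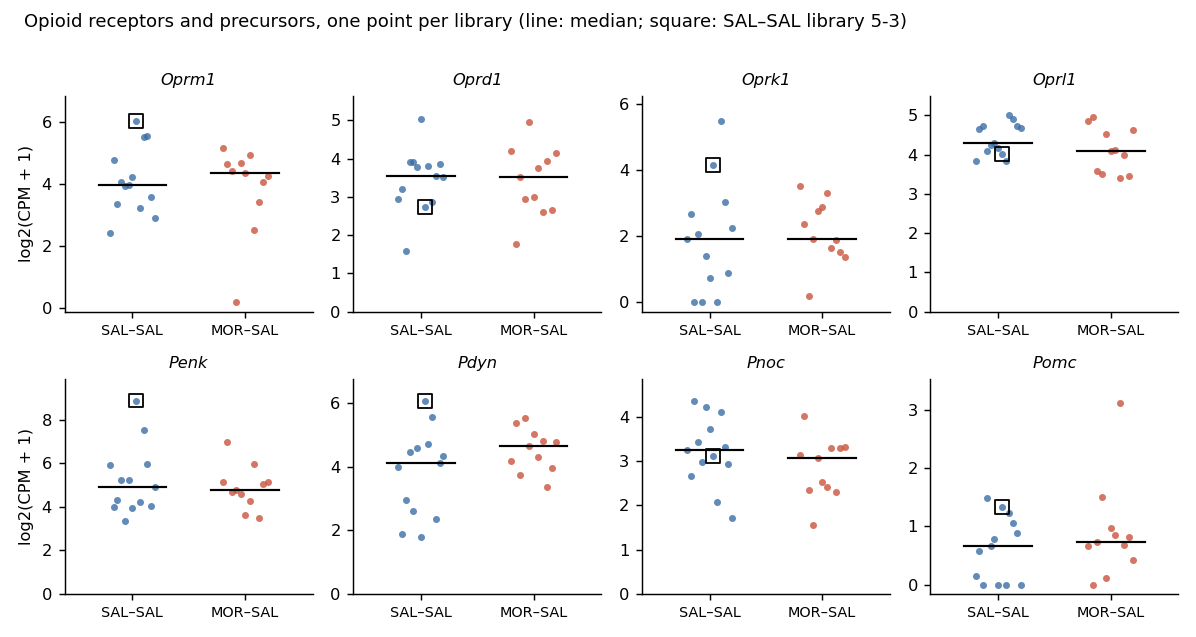
Level of 4 opioid receptors (upper panels) and 4 peptide precursors (lower panels) as log2(CPM + 1) (y axes) in the 13 SAL-SAL (blue) and 11 MOR-SAL (orange) libraries, 1 point per library with a line at the group median. The squared point is SAL-SAL 5-3, at 475 CPM for Penk and 65.1 CPM for Oprm1, and the groups overlap in every panel.

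The signalling genes around the receptors were compared gene by gene and as a sum. Of 36 G protein, adenylyl cyclase, arrestin, channel and kinase genes of at least 1 CPM, 0 were higher and 2 were lower at an unadjusted p under 0.05 (5.56%, against 4.17% of all genes of at least 1 CPM), with a median log2 fold change of -0.04. Camk4, a calcium-dependent kinase upstream of CREB, averaged 168 CPM in MOR-SAL and 268 CPM in SAL-SAL (log2 fold change -0.58 ± 0.29, p = 0.0466), and gave -0.52 (p = 0.08) without MOR-SAL 7-2 and -0.35 (p = 0.199) without SAL-SAL 5-3. Adcy5, the adenylyl cyclase that predominates in the striatum, had a log2 fold change of -1.12 ± 0.49 (p = 0.0266), which was -0.15 (p = 0.717) without SAL-SAL 5-3, where it stood at 1298 CPM against at most 214 CPM in the other SAL-SAL libraries. Summed over the list in each library, the signalling genes were lower in MOR-SAL by a mean log2 difference of -0.16 (two-sided permutation test, p = 0.0319, adjusted p = 0.197 over 37 sums). That difference was -0.12 (permutation p = 0.0338) without the 4 least correlated libraries, -0.12 (permutation p = 0.0691) without MOR-SAL 7-2 and -0.11 (permutation p = 0.375) with TMM-normalised CPM.

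In all, 477 genes of at least 1 CPM belonged to 34 lists of pathways, complexes and cell markers. Of these, 19 (3.98%) had an unadjusted p under 0.05, against 4.17% of all genes, with 12 higher, among them the Y-linked gene Eif2s3y, and 7 lower, and 0 passed the adjusted test. Their median log2 fold change was -0.02. Without MOR-SAL 7-2, 8 of the 19 kept an unadjusted p under 0.05 in the same direction. The lists as a whole thus held small p-values no more often than other genes.

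The transmitter receptors were read against the 4.17% of all genes of at least 1 CPM that had an unadjusted p under 0.05. Of the ionotropic glutamate receptors, 0 of 9 AMPA and kainate subunits had an unadjusted p under 0.05 and all 9 intervals lay between -1 and 1, with a median log2 fold change of -0.11. Of 6 NMDA receptor subunits, 1 had an unadjusted p under 0.05, Grin2c, which ran from 0 through a median of 2.80 to 8.83 CPM in MOR-SAL and from 0 through 5.85 to 39.4 CPM in SAL-SAL. Grin2c gave a log2 fold change of -1.77 ± 0.73 (p = 0.0184) and -1.24 (p = 0.087) without SAL-SAL 5-3. None of the other 5 NMDA receptor subunits did. Of 7 metabotropic glutamate receptors, 0 had an unadjusted p under 0.05, 5 had a negative log2 fold change and the median was -0.22. Of 14 GABA receptor subunits, 1 was higher and 0 lower at an unadjusted p under 0.05, with or without MOR-SAL 7-2, and the median was -0.09.

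Among 25 postsynaptic scaffold and adhesion genes and 25 presynaptic release genes, 0 had an unadjusted p under 0.05. Of the presynaptic genes, 18 had a negative and 7 a positive log2 fold change, with a median of -0.10. Snap25, a SNARE protein of vesicle fusion, had medians of 781 CPM in MOR-SAL and 938 CPM in SAL-SAL, with 2834 CPM in SAL-SAL 1-1 alone. Its log2 fold change was -0.22 ± 0.15 (p = 0.157), and 0.01 (p = 0.961) without the 4 least correlated libraries. Of 25 immediate early genes, which report recent neuronal activity, 0 had an unadjusted p under 0.05. Arc had medians of 52.5 and 70.3 CPM and Egr1 of 78.0 and 81.7 CPM, in MOR-SAL and SAL-SAL respectively, and SAL-SAL 1-1 held the highest value of both, 350 CPM for Arc and 660.3 CPM for Egr1.

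The stress, immune and metabolic lists each held at most 2 genes with an unadjusted p under 0.05. Of 15 glucocorticoid and stress genes, Nr3c1, the glucocorticoid receptor, had medians of 82.8 CPM in MOR-SAL and 95.7 CPM in SAL-SAL (log2 fold change -0.35 ± 0.16, p = 0.0355), or -0.29 (p = 0.066) without MOR-SAL 7-2, its lowest library. The chaperone gene Hsp90ab1 gave 0.72 ± 0.31 (p = 0.0256), or 0.14 (p = 0.604) without MOR-SAL 7-2. Of 16 inflammatory and interferon genes, H2-D1, a class I histocompatibility gene, gave 0.70 ± 0.33 (p = 0.0392). It gave 0.66 (p = 0.0582) without SAL-SAL 5-3, where it was at 3.72 CPM. Without MOR-SAL 7-2, 2 genes of this list were higher and 0 lower at an unadjusted p under 0.05. Of 15 cytokine and interferon receptors, 0 had an unadjusted p under 0.05. Of 24 glycolysis genes, 0 did, and their median log2 fold change was 0.00.

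Of 28 oxidative phosphorylation genes, Ndufb8 of complex I (0.84 ± 0.31, p = 0.00793) and Atp5g3 of the ATP synthase were higher at an unadjusted p under 0.05, and the list's median of 0.10 was -0.01 without MOR-SAL 7-2, where Ndufb8 was at 180 CPM. Irs2, the insulin receptor substrate, was the only one of 17 insulin and feeding genes, with 0.50 ± 0.22 (p = 0.0248), and 0.04 without that library. Both lists therefore contributed no gene with an unadjusted p under 0.05 once the library was left out.

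Genes of the chromatin machinery were measured with the most precision. All 25 histone acetylation writers, erasers and readers had intervals between -1 and 1, with log2 fold changes from -0.38 to 0.37 and a median of 0.03. Hdac3, a histone deacetylase of the NCoR complex, was the only one with an unadjusted p under 0.05, with medians of 54.1 CPM in MOR-SAL and 44.5 CPM in SAL-SAL (0.37 ± 0.15, p = 0.0167). Its highest value was in MOR-SAL 7-2, and without that library it gave 0.28 (p = 0.0582), so that no gene of the list was under 0.05. Of 13 DNA methylation writers and readers, Mbd2, which binds methylated CpG, ran from 55.4 through 62.9 to 71.1 CPM in MOR-SAL and from 52.0 through 82.7 to 114 CPM in SAL-SAL. In Mbd2, 9 of 13 SAL-SAL libraries were above every MOR-SAL library, and the log2 fold change was -0.30 ± 0.13 (p = 0.0211, adjusted p = 0.336).

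**Figure D5:**
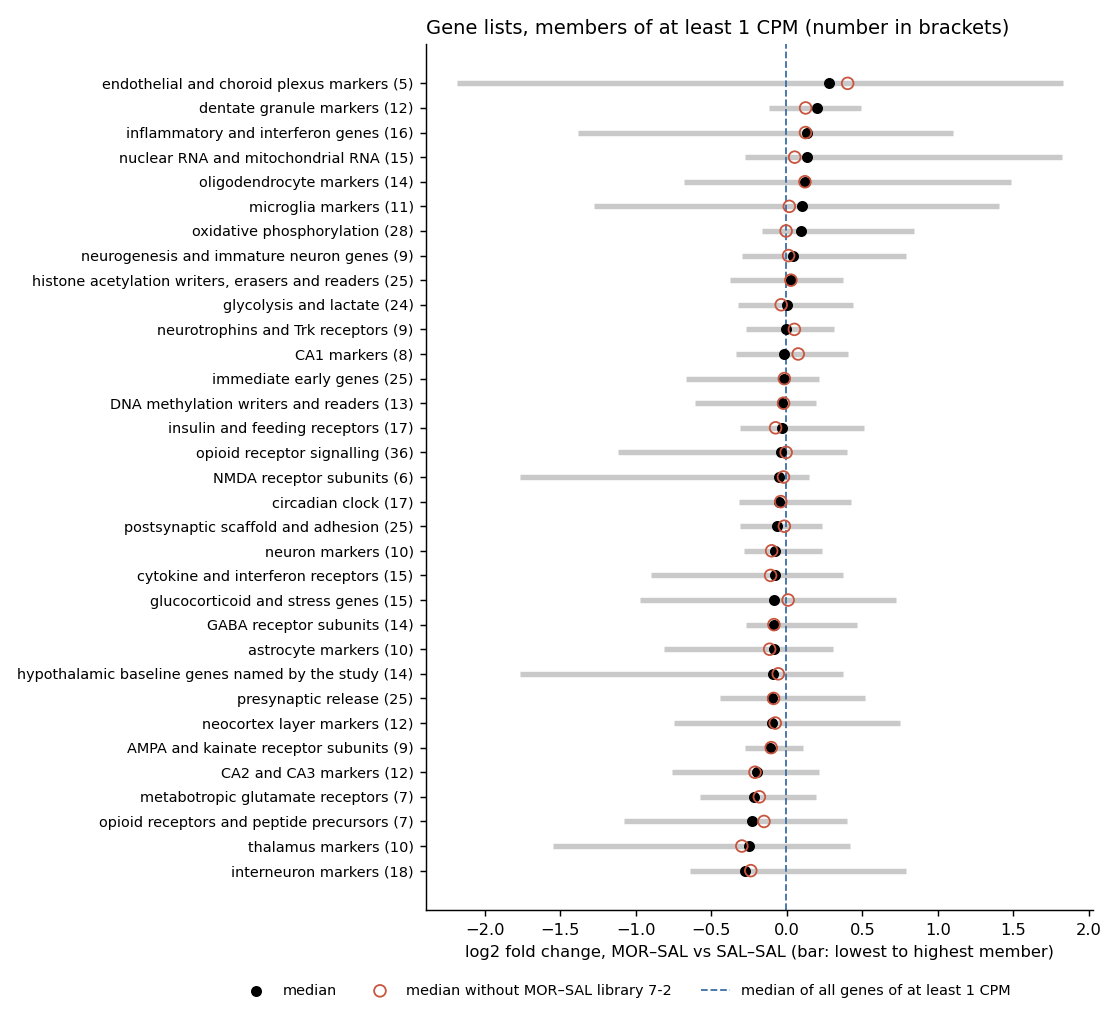
Log2 fold change of MOR-SAL against SAL-SAL (x axis) for 33 gene lists (y axis, number of members of at least 1 CPM in brackets). Black points are medians, grey bars run from the lowest to the highest member, open circles are medians without MOR-SAL 7-2, and the dashed line is the median of all 13990 genes, -0.01. The medians lie between -0.28, of the interneuron markers, and 0.28, of the endothelial and choroid plexus markers.

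The markers of hippocampal cell types were compared as lists and as sums per library. Of 12 dentate granule markers, 0 had an unadjusted p under 0.05 and the median log2 fold change was 0.20. Of 8 CA1 markers, 0 did, with a median of -0.02. Of 12 CA2 and CA3 markers, Pvrl3, a nectin of synaptic adhesion, was lower, from 23.0 through 46.2 to 92.9 CPM in MOR-SAL and from 34.8 through 82.9 to 149 CPM in SAL-SAL (log2 fold change -0.76 ± 0.27, p = 0.00742, adjusted p = 0.223). Of 18 interneuron markers, 0 had an unadjusted p under 0.05, 13 had a negative log2 fold change and the median was -0.28.

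Summed over their members in each library, the interneuron markers ran from 1234 through a median of 1484 to 2023 CPM in MOR-SAL and from 1255 through 1953 to 2463 CPM in SAL-SAL. The difference of mean log2 sums was -0.30 (two-sided permutation test, p = 0.00858, adjusted p = 0.122 over 37 sums). The CA2 and CA3 markers gave -0.31 (permutation p = 0.00892, adjusted p = 0.122) and the presynaptic release genes -0.19 (permutation p = 0.00992, adjusted p = 0.122). Of the 37 sums, 6 had an unadjusted p under 0.05 and none passed the adjusted test. With TMM-normalised CPM, which takes the composition of each library into account, the unadjusted p-values of these sums were 0.0647, 0.116 and 0.0927, and the differences -0.25, -0.27 and -0.14. Between litter means the differences were -0.29 (permutation p = 0.0208), -0.22 (permutation p = 0.139) and -0.19 (permutation p = 0.0488), and without the 4 least correlated libraries they were -0.26 (permutation p = 0.0393), -0.24 (permutation p = 0.0224) and -0.11 (permutation p = 0.0841). With the mean of log2(CPM + 1) over members in place of the sum, they were -0.26 (permutation p = 0.225), -0.24 (permutation p = 0.0314) and -0.08 (permutation p = 0.318).

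A single transcript took a wide range of shares of the libraries. Gm26917, a predicted gene, took 1.82 to 20.2% of the counts in MOR-SAL and 1.45 to 8.37% in SAL-SAL, a difference of mean log2 CPM of 0.90 (permutation p = 0.0268, adjusted p = 0.197). The difference was 0.80 (permutation p = 0.0509) without MOR-SAL 7-2, 0.56 (permutation p = 0.165) without the 4 least correlated libraries and 0.88 (permutation p = 0.0827) between litter means. The share was 20.2% in MOR-SAL 17-2, 15.9% in 7-2, 15.4% in 6-1 and 15.2% in 8-0, all 4 above every SAL-SAL library. Preparation batches are not given in the sources used here, and their part in the difference was not tested. Counts of Gm26917 are part of the totals behind CPM, so a larger share leaves less of the total to the other genes of that library. The part of Gm26917 in the lower neuronal sums was not tested. Total counts did not separate the groups (permutation p = 0.40), and nor did the summed neuron markers, which ran from 6034 to 8298 CPM in MOR-SAL and from 6467 to 9141 CPM in SAL-SAL (difference -0.10, permutation p = 0.141).

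Markers of other cells and neighbouring regions were present and uneven. Oligodendrocyte markers summed to 267 to 1162 CPM in MOR-SAL and 231 to 1185 CPM in SAL-SAL, and astrocyte markers to 724 to 1217 and 422 to 2123 CPM. Microglia markers summed to 21.0 to 59.7 and 22.0 to 61.1 CPM. Endothelial and choroid plexus markers reached 508 CPM in MOR-SAL 13-3 and 179 CPM in SAL-SAL 5-3 and had medians of 30.3 and 33.5 CPM. Pdgfra, the receptor of oligodendrocyte precursors, had a median of 3.78 CPM in MOR-SAL and 1.35 CPM in SAL-SAL, with 8 of 11 MOR-SAL libraries above every SAL-SAL library (log2 fold change 1.48 ± 0.67, p = 0.0313), or 1.22 (p = 0.102) without the 4 least correlated libraries. Thalamus markers summed to 519 to 2126 and 292 to 3127 CPM, neocortex layer markers to 769 to 2333 and 1004 to 3451 CPM, and none of these sums differed at an unadjusted p under 0.05. Gfap, the defining astrocyte filament, was listed at 0 in every hippocampal library and could not be used.

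The effect of exposure was not shown to differ between the sexes as labelled. Y-linked genes contradict the label in MOR-SAL 7-2 (labelled female) and MOR-SAL 17-2 (labelled male), and the labels were used as given. The test of males minus females called 0 genes (0%) by edgeR's quasi-likelihood test, with 2107 genes at an unadjusted p under 0.05, 863 of them of at least 1 CPM, and 15 genes called by DESeq2. The smallest adjusted p among genes of at least 1 CPM was 0.233. Of 6 alternatives to this test, 5 gave the same count, among them the fit without the libraries that go against their label. Lsm7 gave 2.21 ± 0.46 in females and 0.30 ± 0.45 in males (p of the difference 0.00433) and Snhg20 gave 2.32 ± 0.49 and 0.24 ± 0.47 (p = 0.00344). The female values include MOR-SAL 7-2, at 626 CPM for Lsm7 and 424 CPM for Snhg20. MOR-SAL 7-2 is labelled female, and in Trps1, Ccnd3 and Ivd, which kept an unadjusted p under 0.05 without it, the sexes gave fold changes within 1 SE of each other. Cwc22 gave -0.13 ± 0.22 in females and -0.96 ± 0.23 in males (p of the difference 0.0115, adjusted p = 0.336). Its fold change over both sexes was -0.47 (p = 0.00543) without that library, which does not test the difference between the sexes. Cwc22 was at 11.8 CPM in MOR-SAL 7-2 and at 26.9 to 31.6 CPM in the other MOR-SAL libraries labelled female. It was at 23.5 CPM in MOR-SAL 17-2 and at 11.1 to 15.0 CPM in the others labelled male.

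In the main fit the baseline effect differed from the effect seen after an immune challenge in a subset of genes, but the calls depended on the fit. Mice of both exposures given the bacterial endotoxin LPS in adulthood (15 MOR-LPS and 14 SAL-LPS libraries) were compared in the same fit, and the exposure effect after LPS minus that after saline was called in 515 genes (2.33%), 53 of them of at least 1 CPM. No gene of at least 1 CPM was called when only such genes were fitted, nor by limma-voom, which called 3 genes in all, both with litter as a random effect and with no litter term (1902 and 1904 genes at an unadjusted p under 0.05). Y-linked genes also went against the labelled sex in SAL-LPS 2-2 (labelled female, 127 CPM) and MOR-LPS 17-1 (labelled male, 0 CPM). Without these and MOR-SAL 7-2 and 17-2, 388 genes were called, 15 of them of at least 1 CPM. Trps1, at -1.02 ± 0.24 after saline, was at 0.29 ± 0.21 after LPS (adjusted p of the difference 0.0175, and 0.0408 without the 4 libraries that go against their label). Tyw5, at -0.88 ± 0.23 after saline, was at 0.23 ± 0.21 (adjusted p = 0.0396, and 0.0901 without those 4). Ivd and Rsph9 went from 0.54 and 0.89 to -0.16 and -0.48 (adjusted p = 0.0385 and 0.0163, and 0.153 and 0.0378 without those 4). By DESeq2 the adjusted p of the difference was 0.0382 in Trps1 and 0.0323 in Rsph9, but 0.0944 in Tyw5 and 0.113 in Ivd. Pvrl3 and Gm26917 were also among the 53 genes (adjusted p = 0.0308 and 0.0223), but not without those 4 libraries (adjusted p = 0.0698 and 0.128).

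Trps1, Tyw5, Ivd and Rsph9 were named for a small baseline p, and the difference subtracts those same baseline values. Such a choice by itself favours a difference from the value after LPS, so these differences are not separate evidence. Not all genes with a low baseline p had a called difference. Ccnd3 was at 0.54 ± 0.29 after LPS and the difference was not called (adjusted p = 0.48), and Cntnap3 was at -0.50 ± 0.42 (adjusted p = 0.471). Lsm7, Snhg20 and Malat1, whose baseline fold changes were far smaller without MOR-SAL 7-2, were among the 53. Without that library 435 genes were called, 29 of them of at least 1 CPM. The difference then had an adjusted p of 0.0446 in Lsm7, 0.0253 in Snhg20 and 0.148 in Malat1. Without the libraries that go against their label it was 0.0591 in Lsm7, 0.0450 in Snhg20 and 0.378 in Malat1. The fit of only genes of at least 1 CPM had 1199 genes at an unadjusted p under 0.05, and DESeq2 called 23 genes, 11 of them of at least 1 CPM.

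The same comparison in the other dissected regions placed the hippocampus beside regions with and without DEGs. The baseline comparison called 545 of 28841 genes (1.89%) in the hypothalamus (14 MOR-SAL and 9 SAL-SAL libraries), 0 of 21656 (0%) in the prefrontal cortex (12 and 10) and 0 of 23426 (0%) in the striatum (8 and 13). The difference between regions was tested with limma-voom with the animal as a random effect, since animals were shared between regions. Against the hypothalamus, 3 of 20271 genes (0.0148%) differed, and against the prefrontal cortex and striatum 0 of 20635 (0%) and 0 of 21391 (0%), with 1063 and 1243 genes at an unadjusted p under 0.05. The counts within regions are from edgeR and those of the differences from limma-voom, so they are not to be set against each other.

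The 3 genes were Alpk1, Map7d1 and Trdmt1, each with an adjusted p of 0.0354 for the difference. Alpk1, a kinase that senses bacterial sugars, had a log2 fold change of 0.20 ± 0.32 in the hippocampus and -2.95 in the hypothalamus. Map7d1, a microtubule-associated protein, gave 0.04 ± 0.13 and -1.02, at about 86 CPM in both hippocampal groups. Trdmt1, a tRNA cytosine methyltransferase, gave -0.44 ± 0.23 and 1.31. Trps1, the hippocampal gene with the smallest p, was at -0.91 in the hypothalamus (adjusted p = 0.0228), where it passed the test, and at -0.17 in the prefrontal cortex and 0.19 in the striatum, and the hippocampus and hypothalamus values were not shown to differ (adjusted p = 0.915). Of 14 genes that the study had named from the hypothalamic comparison of partly the same animals, and which are therefore not independent evidence, 1 (Grin2c) had an unadjusted p under 0.05 in the hippocampus, and their median log2 fold change was -0.09. Their sum in each library was lower in MOR-SAL by a mean log2 difference of -0.17 (permutation p = 0.0243, adjusted p = 0.197 over 37 sums), and the difference was -0.13 without the 4 least correlated libraries (permutation p = 0.101) and -0.13 with TMM-normalised CPM (permutation p = 0.0527).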

How the data were processed

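Per the labels, nuclei were isolated from punches of frozen tissue, NeuN+ nuclei were sorted, and nuclear RNA was made into libraries by a modified Smart-seq3 protocol with Tn5 tagmentation and PCR, sequenced as paired ends. The authors trimmed reads with Trim Galore 0.6.7, aligned them to mm10 with STAR 2.7.10a and obtained gene-level counts with STAR, checked with HTSeq 0.12.4. The strand setting is not given in the sources used here. The deposited counts were used as they stand. Deposited CPM values were used only in alternative limma tests of log2(CPM + 1) and log2(CPM + 0.1). All other CPM here are counts scaled to a library's total, computed from the deposited counts.

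Libraries under 0.5 of the median total (9184251) were dropped, which left 53 of 55 hippocampal libraries. Genes with a total count above 10 were fitted in all 4 conditions with sex as a covariate (edgeR 4.0.16, TMM, quasi-likelihood test, R 4.3.3), following the study's model. The alternatives included DESeq2 1.42.0, limma 3.58.1 with voom and limma on log2 of the deposited CPM. The voom fits had litter, animal or no random effect. Adjusted p-values are Benjamini-Hochberg over all genes tested. Sums of marker lists were compared by a permutation test with 100000 resamples (SciPy 1.17.1). The fits were tested on simulated data. Litter was read from the replicate number as described by the study, and libraries of 1 litter had a consensus correlation of -0.000818. p-values measure the spread between animals, which share litters, and intervals on counts of PCR reads do not cover amplification.

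The genes named are the 10 with the smallest p in each direction among genes of at least 1 CPM, genes called by edgeR or DESeq2, all opioid receptors and precursors, and in each list the most abundant members and the member with the smallest p in each direction. A few genes outside this rule (Camk4, Atp5g3, Rbfox3, Alpk1, Map7d1, Trdmt1, Gm26917, Gfap, Ankk1, Dnajb13, Drd2, Pde10a, Zfp949) were named after their values were seen. Members and lists were chosen with earlier results of these data known. Coordinates and overlaps are from GENCODE vM21 on mm10, whereas the study states another release, and 3 named genes (RP24-567O8.4, Gm28904 and Pvrl3) found no match by symbol. Some genes that this rule names are not reported here.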

Additional observations from a re-analysis of the deposited data

Results flagged for a closer look

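The effect of exposure after LPS differed from that after saline, by a test of the difference itself, in 515 genes, of which 53 had a mean of at least 1 CPM. None of these was called when only genes of at least 1 CPM were fitted, and limma-voom called 3 genes with or without litter as a random effect, none of them of at least 1 CPM. Without the 4 libraries whose Y-linked genes go against their label, 388 genes were called, 15 of them of at least 1 CPM. Among these 53, Snhg20 and Zfp949 shared the smallest adjusted p (0.0151, edgeR's quasi-likelihood test). In Zfp949, named after its value was seen, the log2 fold change was lower after LPS than after saline by a difference of -0.91. Snhg20 had a log2 fold change of 1.55 after saline and -0.94 after LPS, and the baseline value rests on MOR-SAL 7-2. Without that library the difference in Snhg20 was -1.25 (adjusted p = 0.0253) and that in Zfp949 -0.78 (adjusted p = 0.0211). Trps1 had an adjusted p of 0.0175 for the difference, with -1.02 after saline and 0.29 after LPS. Trps1 was named for its small baseline p, and the difference includes that baseline value. Its adjusted p for the difference was 0.242 when only genes of at least 1 CPM were fitted.

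The effect of exposure differed between the hippocampus and the hypothalamus, by limma-voom with the animal as a random effect, in 3 genes, namely Alpk1, Map7d1 and Trdmt1. In each the hypothalamic fold change was the larger one in size and the hippocampal one lay within 2 SE of 0.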

How the results depend on the processing

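The count of 0 DEGs at baseline was given by 39 of 40 alternatives, among them every fit that left out 1 litter or 1 of the 4 least correlated libraries (0 to 0 genes), with 608 to 2824 genes at an unadjusted p under 0.05. DESeq2 called 17 genes, 4 of them of at least 1 CPM, and called 15 genes for males minus females and 23 for LPS minus saline. LPS minus saline was called in 435 genes without MOR-SAL 7-2, in 388 without the 4 libraries that go against their label, in 3 by limma-voom both with litter as a random effect and with no litter term, and in 0 with only genes of at least 1 CPM in the fit. The difference from the hypothalamus was called in 5 genes with only genes of at least 1 CPM in both regions and in 2 with low depth libraries kept. None of the 37 summed levels passed the adjusted test under 6 alternatives. The fits without single libraries, without the libraries that go against their label and by limma-voom with no litter term were chosen after seeing the data. The causes of these changes were not tested. No paired analysis was possible because the replicate numbers are litter and animal numbers and no litter held both exposures. The precision is limited by 11 and 13 animals, by 24 libraries of 15 litters, by 2 baseline libraries whose Y-linked expression contradicts the labelled sex and, for genes near 1 CPM, by depth. Genes listed at 0 in every hippocampal library, such as Gfap, P2ry12, Per3 and B2m, could not be examined.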
